A study of Homo sapiens with 4 samples.

Results

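The TRIM genes, which encode a large family of tripartite motif proteins, were followed in 2 HEK293 lines before and 12 h after short poly I:C. Members were all genes whose symbol in the platform annotation is TRIM followed by a number, with or without a letter after it, and pseudogenes were left out. The rule gave 66 genes read by 73 probes, of 18639 named genes on the array. Of these, 56 were detected on all 4 arrays, 7 on 1 to 3 arrays and 3 (TRIM46, TRIM48 and TRIM49) on none.

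HEK293 is an immortalized human embryonic kidney line, and both lines studied were made from it. One carried an LGP2 transgene (LGP2 is the third RIG-I-like helicase, encoded by DHX58), and the other line carried LGP2-4KR, a form whose name the labels do not spell out. Each line was taken unstimulated (0 h) and 12 h after lipid transfection of short poly I:C, a low molecular weight mimic of double-stranded RNA, at 100 ng/ml. That made 4 groups of 1 array each, and cells transfected without poly I:C or kept untreated for 12 h were not among them, so poly I:C, the transfection and the time in culture cannot be told apart. The promoter that drives the transgenes, and whether a line is a single clone, are not given in the sources used here.

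Most TRIM proteins are ubiquitin ligases. They are built from a RING finger, which recruits the ubiquitin-conjugating enzyme, B-box zinc fingers, a coiled coil through which they form dimers, and a variable end, often a PRY-SPRY domain, that selects the target. Cytoplasmic double-stranded RNA is sensed by RIG-I and MDA5, which signal through the adaptor MAVS and the kinase TBK1 to the transcription factor IRF3 and so to interferon beta. Several TRIM proteins attach ubiquitin to these sensors and adaptors or restrict viruses directly, and some of their genes are themselves targets of interferon through the factor ISGF3, which binds interferon-stimulated response elements.

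Promoter sequences are shown for 5 members in which the core of such an element was found, because 2 of them lead the response and 3 do not. The RefSeq promoter table of build GRCh38.p14 (250 bases before to 50 after the start site) held 51 of the 66 members. Searched on both strands, the core GAAANNGAA (TTCNNTTTC on the other strand) was present in 11 of the 51, or 21.6%, against 8.29% of all 27305 promoters of that length. A pair of overlapping cores on 1 strand, with starts at most 6 bases apart, was present in 2 members, TRIM21 and TRIM26, and in 0.212% of all promoters. TRIM22 was not searched. This arrangement was looked for after the values of these genes were known. Capitals mark the core, and each sequence is given on the strand of its gene.

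TRIM26: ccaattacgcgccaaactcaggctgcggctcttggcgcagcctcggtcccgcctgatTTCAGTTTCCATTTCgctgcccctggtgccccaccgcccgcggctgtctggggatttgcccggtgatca
TRIM21: tgagcgGAAACTGAAAGTGAAataggg
TRIM5: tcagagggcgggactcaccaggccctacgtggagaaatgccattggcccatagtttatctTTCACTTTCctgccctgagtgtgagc
TRIM14: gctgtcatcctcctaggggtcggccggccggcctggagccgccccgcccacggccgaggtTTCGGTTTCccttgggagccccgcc
TRIM34: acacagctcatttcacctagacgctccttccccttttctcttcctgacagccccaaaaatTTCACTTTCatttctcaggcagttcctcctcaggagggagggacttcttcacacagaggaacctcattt

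The TRIM26 stretch lies at chr6:30213531-30213656 on the minus strand, the TRIM21 site at chr11:4393665-4393691 (minus), the TRIM5 stretch at chr11:5685075-5685160 (minus), the TRIM14 stretch at chr9:98119223-98119307 (minus) and the TRIM34 stretch at chr11:5624852-5624980 (plus). The paired cores of TRIM26 have their first bases at -193 and -187 from the start site, and those of TRIM21 at 18 and 24, within the transcribed sequence. TRIM5, TRIM14 and TRIM34 each had 1 core before the start site. A kappa B element written as GGGANTTTC was present in 0 of the 51 members and in 1.3% of all promoters. A match is a description of these letters and not a measured binding site.

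Levels are given as the authors' deposited intensities, in which every array has a median of 25, and ratios as log2 of 12 h over 0 h after normalization with an offset of 50 (or of 4KR over LGP2 cells). Because the offset pulls ratios of dim probes towards 0, the ratio of deposited intensities is given beside several of them. A gene was detected where a probe passed the mean of the blank spots by 2 SD. Gene probes so detected were between 83.2% and 89.2% of an array, and 56 to 63 of the members, with more members on both stimulated arrays than on either unstimulated one. The response itself was large in both lines: IFIT1, an interferon-induced RNA-binding protein, had log2 ratios of 6.58 and 7.08. Common control genes had a median of -0.20 in both lines. All 7 of the measured genes listed as known in HEK293 cells were detected on all 4 arrays, while PTPRC, PECAM1 and ALB, markers of leukocytes, endothelium and liver, were detected on none. CD3E, CD14 and LYZ, markers of T cells and myeloid cells, were detected on all 4, with deposited intensities of 20.5 and 22.6 for CD14 in unstimulated and stimulated LGP2 cells. On print blocks 20, 21 and 24 of the array the median difference of the responses was -0.08, -0.09 and 0.15, against -0.02 to 0.05 on the other blocks; their 10 member probes belong to TRIM4, TRIM9, TRIM27, TRIM35, TRIM47, TRIM49, TRIM55, TRIM62, TRIM69 and TRIM77.

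The first comparison asked which TRIM genes differed between 12 h and 0 h within each line. TRIM26, TRIM21 and TRIM22 stood out, and they did so in both lines. At 12 h these 3 of the 63 members detected in LGP2 cells (4.76%) were at least 1.5-fold higher, against 1.86% of all genes, and the same 3 of 62 in 4KR cells (4.84%) against 1.58%. At 2-fold there were 1 (TRIM26) against 0.436%, and 2 (TRIM21 and TRIM26) against 0.406%. In the other direction 0 members passed 1.5-fold in either line, against 0.501% and 0.424% of all genes. The members' median log2 ratio came to 0.04 (LGP2 cells) and 0.05 (4KR cells), with -0.01 for all genes in both. With 1 array a group these counts have no test and no replicate check.

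TRIM26, a ligase that acts on the kinase and transcription factor steps of interferon induction, had unstimulated intensities of 59.4 (LGP2 cells) and 60.9 (4KR cells). At 12 h the intensities were 182.9 and 168.1. Both stimulated arrays were thus about 3 times the unstimulated ones, by ratios of 3.08 and 2.76 in the deposited table, and the lines differed little at either time. On the log2 scale with the offset the ratios were 1.07 and 1.04.

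TRIM21, the cytosolic antibody receptor, had intensities of 16.7 and 16.5 unstimulated and of 68.3 and 67.6 at 12 h, in LGP2 and 4KR cells. Its deposited ratio, 4.09 and 4.10, was above that of TRIM26, while with the offset it was slightly below, at log2 ratios of 0.97 and 1.04. The probe was dimmer than that of TRIM26 before stimulation, where the offset weighs more.

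TRIM22, an interferon-induced restriction factor of several viruses, was not above background on either unstimulated array and has no deposited value there. At 12 h its intensities were 27.3 in LGP2 cells and 22.6 in 4KR cells. With the offset and normalization used here, the stimulated level was at least 1.79-fold higher for LGP2 and at least 1.69-fold higher for 4KR. The dimmest detected probe of the unstimulated array was taken as the upper limit of TRIM22 there. Of the 5 members detected on the stimulated arrays only (TRIM22, TRIM36, TRIM51, TRIM62 and TRIM75), the other 4 had intensities of 3.5 or less at 12 h.

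**Figure D1:**
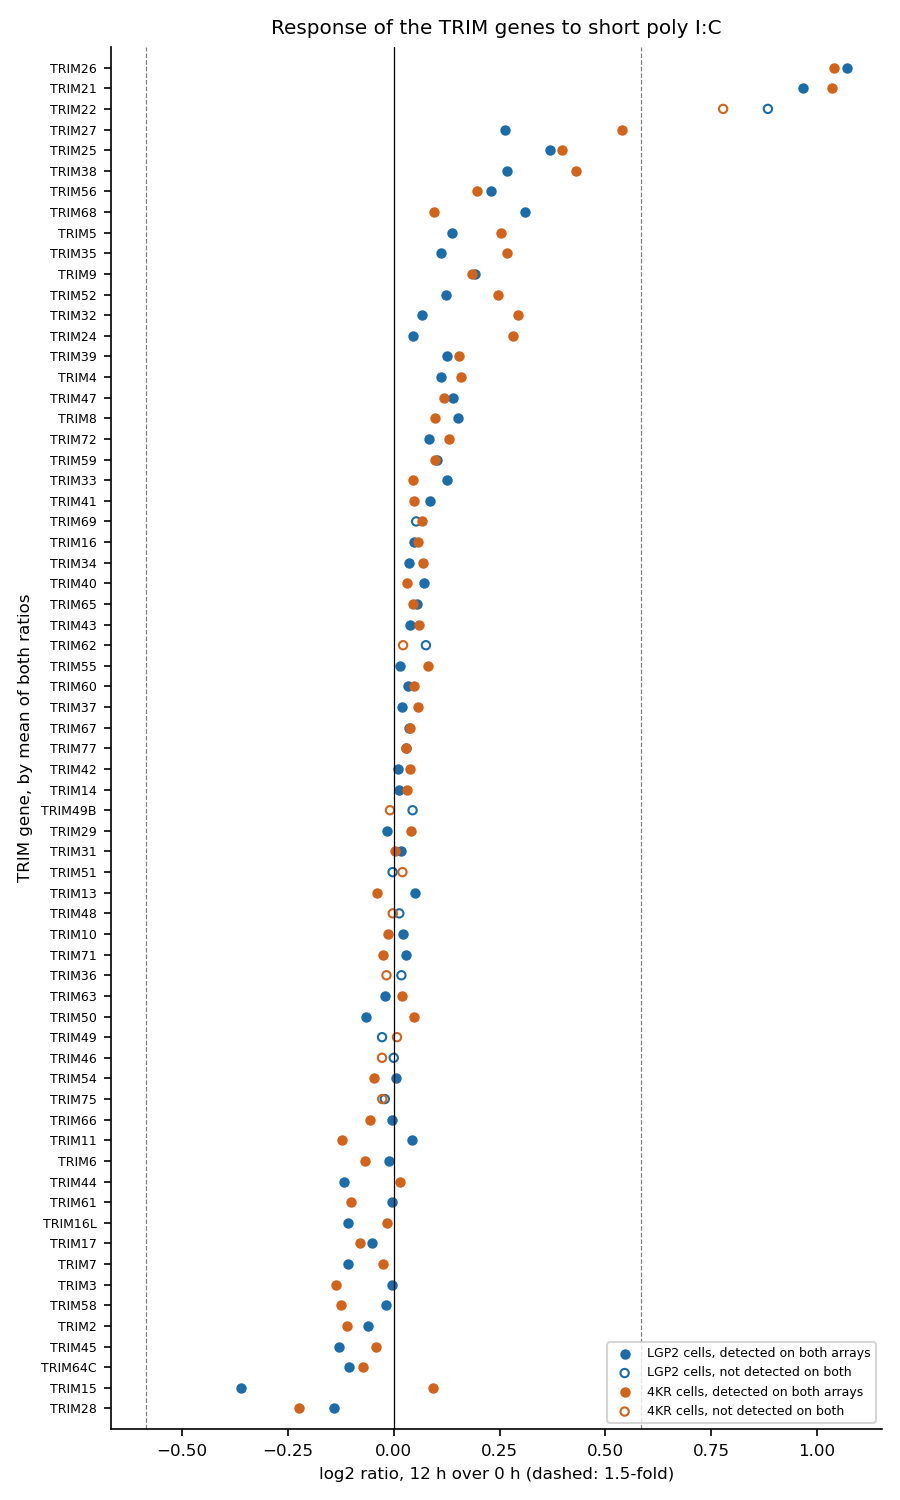
Log2 ratio of 12 h over 0 h (x axis) for each of the 66 TRIM genes (y axis, ordered by the mean of both ratios), 1 array a value, with filled points where the gene was detected on both arrays of the line and open points where it was not. TRIM26, TRIM21 and TRIM22 lie right of the dashed 1.5-fold line in both lines, and no gene lies left of the other.

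A test was possible only when the lines stood in for replicates, in an additive limma model of line and time over 16602 genes with Benjamini-Hochberg adjustment. In it 7 of 62 members rose (11.3%), against 8.4% of all genes, and 0 fell, against 7.74%. At an unadjusted p under 0.05 there were 18 higher (29%, against 15.9% of all genes) and 1 lower (1.61%, against 17.8%). Any true difference between the lines in their responses counts as error in this fit, and a shift shared by both stimulated arrays counts as response. At the adjusted threshold the share of members that rose was near that of all genes, and at the unadjusted one it was above it.

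The 7 were TRIM26 at a log2 change of 1.06 ± 0.03 (SE, limma adjusted p = 0.0117), TRIM21, TRIM22, TRIM25, TRIM38, TRIM56 and TRIM9. The fit had 1 residual degree of freedom, and 2.32 borrowed from the variance of all genes. Each SE is thus not a spread between replicates of that gene. TRIM21 was at 1.0 ± 0.04 and TRIM22 at 0.83 ± 0.04, with limma adjusted p of 0.0144 and 0.0214. As TRIM22 was not above background at 0 h, its fitted change depends on the offset. The bounds given above rest on the same offset and normalization. Over the alternatives its log2 ratio came down to 0.74 in LGP2 and 0.52 in 4KR cells, below those bounds. TRIM25, TRIM38, TRIM56 and TRIM9 changed by less than 1.5-fold.

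TRIM25, the ligase best known for attaching ubiquitin chains to RIG-I, had intensities of 35.2 and 34.7 unstimulated and of 63.8 and 61.1 at 12 h in LGP2 and 4KR cells. Both stimulated arrays were above both unstimulated ones, by deposited ratios of 1.81 and 1.76. The log2 change over both lines was 0.38 ± 0.03 (SE, limma adjusted p = 0.0237). With plain subtraction of the blank level in place of the offset it was 0.61 and the adjusted p 0.0695.

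TRIM38, a regulator of innate sensor and cytokine signalling, had intensities of 27.3 and 22 unstimulated and of 45.9 and 43.3 at 12 h in the same order. The stimulated values were again the higher ones, with ratios of 1.68 and 1.97. The log2 change was 0.35 ± 0.05 (limma adjusted p = 0.0417), and the adjusted p was 0.0831 with plain subtraction and 0.0516 without the detection filter.

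TRIM56, a ligase linked to STING and to antiviral restriction, had intensities of 13.1 and 12.1 unstimulated and of 23.8 and 19.9 at 12 h. Its ratios of 1.81 and 1.64 were close to those of TRIM25. The log2 change of 0.21 ± 0.03 (limma adjusted p = 0.0394) lost its call with plain subtraction, at an adjusted p of 0.0739, and with scaling to the 75th percentile, at 0.457.

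TRIM9, a ligase best known from neurons, was read by 2 probes. One in block 20 had intensities of 10.8 and 11.6 unstimulated and of 22 and 18.4 at 12 h in LGP2 and 4KR cells, and one in block 22 had 21.7 and 23.6 against 30.4 and 35.0. The probes agreed in direction and differed in which line showed more. The log2 change of 0.19 ± 0.03 (limma adjusted p = 0.0441) was not called with plain subtraction, with 75th percentile scaling or on the brighter probe alone, where the adjusted p were 0.0820, 0.430 and 0.0966.

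**Figure D2:**
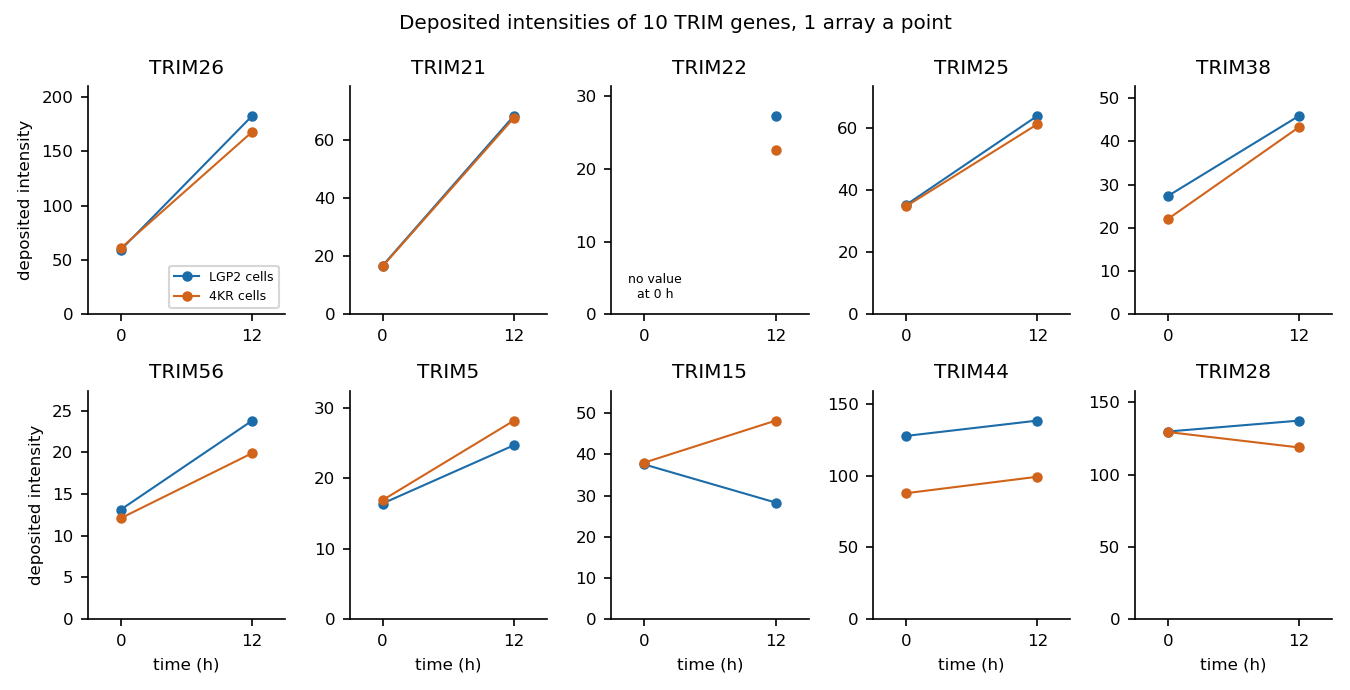
Deposited intensity (y axis, linear from 0, its own range in each panel) at 0 h and 12 h (x axis) for 10 TRIM genes, 1 array a point, LGP2 cells in blue and 4KR cells in orange. TRIM26 goes from 59.4 and 60.9 to 182.9 and 168.1, TRIM22 has no value at 0 h, and TRIM15 is the panel in which the lines part, with 28.3 against 48.2 at 12 h.

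Not called, although their mean responses lay among those of the called members, were TRIM27, TRIM68, TRIM5 and TRIM35. The mean log2 response of TRIM27, 0.40, was the fourth highest of all members, and those of TRIM68 and TRIM5 were 0.20, above that of TRIM9. TRIM35, whose probe lies in block 24, was at 0.1902 against 0.1894 for TRIM9, with a limma adjusted p of 0.109. TRIM27, a ligase with reported targets around TBK1, was read by a probe in block 14, with intensities of 53.5 and 55.2 unstimulated and 90.2 and 91.7 at 12 h, and by one in block 24, with 290.2 and 184.7 against 366.0 and 326.3. The block 14 probe gave like ratios in the lines, 0.35 and 0.41, and the block 24 probe 0.18 and 0.67. The gene's log2 change was 0.40 ± 0.08 with a limma adjusted p of 0.0648, which was 0.0225 with each block centred on its median and 0.00545 without blocks 20, 21 and 24. It was also called with offset 16 (0.0185), no normalization between arrays (2.26e-13), 75th percentile scaling (2.93e-06) and a variance trend (0.0275). It was not called under the other alternatives, the highest adjusted p being 0.142 on the brightest probe.

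TRIM5, the retroviral capsid restriction factor, had intensities of 16.4 and 16.9 unstimulated and of 24.7 and 28.2 at 12 h in LGP2 and 4KR cells. Its log2 ratios were 0.14 and 0.25, with a limma adjusted p of 0.0754. It was called under 4 alternatives, at 0.0300 with offset 16, 0.000186 with no normalization between arrays, 0.0331 without blocks 20, 21 and 24 and 0.0338 with a variance trend. TRIM68, another member on chromosome 11, had log2 ratios of 0.31 and 0.10 and an adjusted p of 0.146.

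Other members of the pathway list stayed under 1.5-fold in both lines. TRIM24 was at 0.05 and 0.28 and TRIM32, an NHL ligase, at 0.07 and 0.29, as large in 4KR cells as TRIM5. TRIM15, described with the lines, was at -0.36 and 0.09. TRIM65, which acts on MDA5, was at 0.05 in both lines, with intensities of 61.7 and 57.1 unstimulated and 78.0 and 67.7 at 12 h. TRIM13, an endoplasmic reticulum ligase, was at 0.05 in LGP2 and -0.04 in 4KR cells. TRIM4, a RIG-I ligase, was at 0.11 and 0.16. TRIM14, a RING-less partner of MAVS, was at 0.01 and 0.03, and TRIM31, a ligase of MAVS, at 0.02 and 0.00 on deposited intensities of 3.6 or less. With 75th percentile scaling TRIM31 was lower over both lines, at -0.29 (limma adjusted p = 0.0059), and TRIM13 and TRIM14 also changed sign. Of the 27 genes listed as regulators of the pathway, 26 were measured and TRIM23 was not named on the array. Their medians were 0.07 and 0.10. In each line 3 were past 1.5-fold, against 1.86% and 1.58% of all genes, and all 7 members called by limma (8.4% of all genes) were among the 26, a list that was drawn up with earlier results of these data known.

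The lowest members were few and small. TRIM28, the KAP1 corepressor of zinc finger proteins, had log2 ratios of -0.14 and -0.22 and a limma adjusted p of 0.0668, which was 0.0293 to 0.0477 under 3 of the alternatives. With no normalization between arrays its change was 0.28 in the other direction, at an adjusted p of 0.0217. Its deposited intensities were nearly level, at 129.8 and 129.5 unstimulated and 137.4 and 118.8 at 12 h, so its direction depended on the scaling between arrays. TRIM64C, TRIM45 and TRIM2 were at -0.11, -0.13 and -0.06 in LGP2 cells and at -0.07, -0.04 and -0.11 in 4KR cells. Over both lines all 3 were above 0 with no normalization between arrays, so no direction is given for them. The probes for TRIM16 and TRIM16L, and those for TRIM43, TRIM48, TRIM49, TRIM49B, TRIM51, TRIM64C and TRIM77, may read near-identical copies, so their values are uncertain as to the gene.

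The structural subgroups are too small to set their counts apart from the shares of all genes (1.86% and 1.58% past 1.5-fold, 8.4% by limma). The nuclear TIF1 corepressors TRIM24, TRIM28, TRIM33 and TRIM66 had 0 of 4 past 1.5-fold and ranged from -0.14 to 0.13 in LGP2 cells and from -0.22 to 0.28 in 4KR cells. The NHL repeat members TRIM2, TRIM3, TRIM32 and TRIM71 had 0 of 4, and the RING-less members 0 of 6, with medians of -0.01 and 0.02. Among the COS box members, which include the muscle ligases TRIM54, TRIM55 and TRIM63, 7 of 8 were detected and only TRIM9 was called. The muscle ligases were detected on all arrays at deposited intensities of 9.1 or less.

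Ratios of genes that lie next to each other were set side by side, with no test. On chromosome 6, TRIM31, TRIM40, TRIM10, TRIM15, TRIM26 and TRIM39 follow one another in the RefSeq gene order, and with the offset TRIM26 alone of the 6 passed 1.5-fold. In the deposited table TRIM31, on intensities of 3.6 or less, also did so, at 2.53 and 1.76. There 3320 of all genes in LGP2 and 2131 in 4KR cells passed 1.5-fold too. TRIM15 and TRIM39, on either side of TRIM26, were at -0.36 and 0.13 in LGP2 cells and 0.09 and 0.16 in 4KR cells. On chromosome 11, TRIM5, TRIM6, TRIM34 and TRIM22 lie together, and with the offset TRIM22 alone of the 4 passed, at 0.88 and 0.78. The deposited ratios of its neighbours were 1.87 and 2.10 for TRIM34 and 1.5 and 1.67 for TRIM5, so TRIM22 passing alone depends on the offset. With plain subtraction the limma log2 change was 4.40 for TRIM22, which is at its floor unstimulated, and 0.445 for TRIM5. TRIM6 was at -0.01 and -0.07, and TRIM34, which shares a read-through transcript with TRIM6, at 0.04 and 0.07 on intensities of 2.1 to 4.6. TRIM69 lies beside B2M, the light chain of class I antigen presentation. B2M was at 1.20 and 0.97 and TRIM69 at 0.05 and 0.07, although the TRIM69 probe was so dim (3.5 and 3.7 at 12 h) that the offset leaves little ratio to see. In the deposited table the ratios were 3.12 and 2.47 for TRIM69 and 2.10 and 1.66 for B2M. TRIM69 was not above background in unstimulated LGP2 cells.

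**Figure D3:**
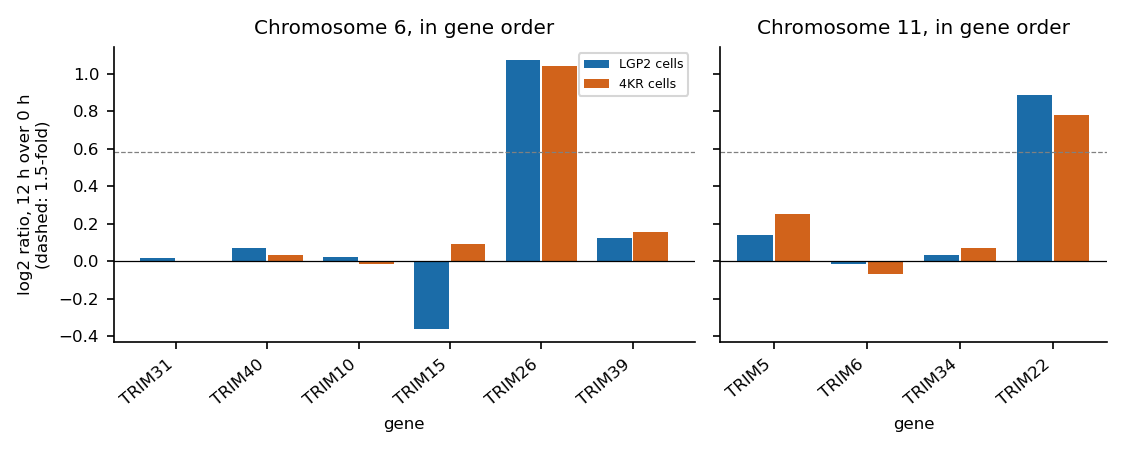
Log2 ratio of 12 h over 0 h (y axis) for the TRIM genes of a run on chromosome 6 and of a run on chromosome 11, in gene order (x axis), with a bar for each line and 1 array behind each time. TRIM26 (1.07 and 1.04) and TRIM22 (0.88 and 0.78) pass the dashed 1.5-fold line, and the neighbours stay within -0.36 and 0.25 on this scale, which has the offset.

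Ratios of the members that hold the element core covered a wide range. With the offset, TRIM26 and TRIM21, with overlapping cores, were the highest of the 11, while TRIM5, TRIM14 and TRIM34, with 1 core each, were at 0.14, 0.01 and 0.04 in LGP2 cells and 0.25, 0.03 and 0.07 in 4KR cells. Their deposited ratios were 1.5, 1.21 and 1.87 in LGP2 cells and 1.67, 1.18 and 2.10 in 4KR cells. These were below those of TRIM26 and TRIM21 but not near 1 for TRIM5 and TRIM34. TRIM69, also with 1 core, had deposited ratios of 3.12 and 2.47, above the 3.08 of TRIM26 in LGP2 cells. Its intensities were 3.7 or less, and it was not detected in unstimulated LGP2 cells. The remaining members with 1 core were below TRIM26 and TRIM21 where a deposited ratio could be formed. TRIM25, TRIM38, TRIM56 and TRIM9 rose in the limma fit and had no match in the 300 bases searched.

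The ubiquitin genes of the sensor pathway outside the family were taken for comparison, 35 of 41 listed. In LGP2 cells 5 of them were at least 1.5-fold higher and in 4KR cells 4, with 0 lower, against 1.86% and 1.58% of all genes higher, and their medians were -0.003 and 0.03. Higher in both lines were TNFAIP3, an editor of ubiquitin chains, at 3.10 and 3.08, HERC5, the ISG15 ligase, at 2.21 and 2.04, USP18, the ISG15 protease, at 1.58 and 1.76, and UBE2L6, the ISG15 conjugating enzyme, at 0.64 and 0.71. By limma 9 of the 35 rose, against 8.4% of all genes, TRAF6, CYLD, TRAF3, SIAH1 and USP25 being the others, and SHARPIN, of the linear ubiquitin complex, fell by 0.31 on the log2 scale at an adjusted p of 0.0478. RNF135, the ligase Riplet that acts on RIG-I beside TRIM25, was at 0.18 and 0.01.

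The second comparison asked whether the form of LGP2 changed the response of the TRIM genes. It was not seen to do so past 1.5-fold, in 0 of 56 members detected on all 4 arrays in either direction, against 0.451% and 0.432% of all genes. The response was within 0.1 on the log2 scale of that of the other line for 42 of the 56, and within 0.2 for 51. The same shares over all genes were not computed, so these counts do not set the members apart. The differences (4KR minus LGP2) were -0.03 for TRIM26, 0.07 for TRIM21, 0.03 for TRIM25, 0.16 for TRIM38 and -0.03 for TRIM56. TRIM22 was not detected at 0 h and so was not among the 56. Its difference with the offset was -0.11, and -0.45 to 0.02 over the alternatives. With 1 array on each side of each ratio, a small difference cannot be distinguished from the spread between arrays, which was not measured.

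**Figure D4:**
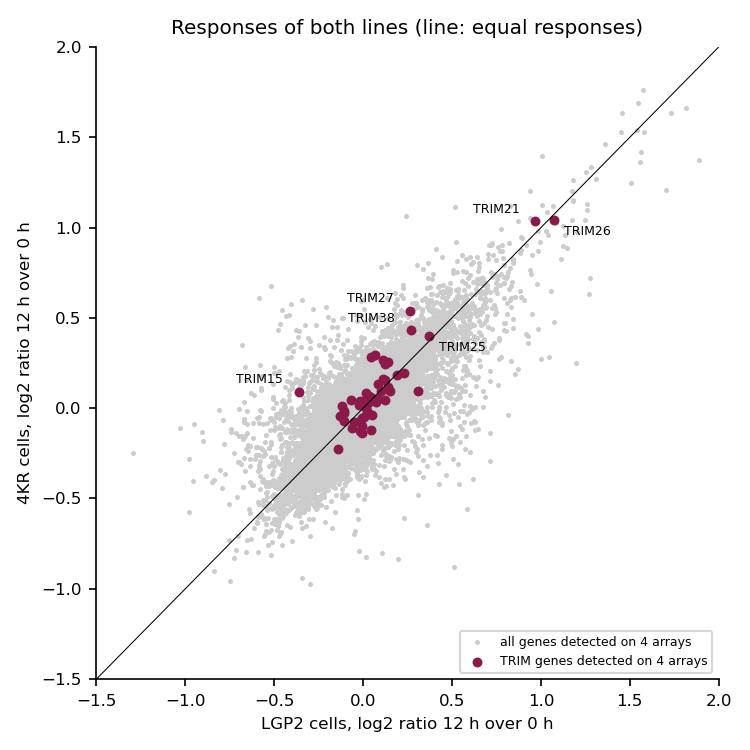
Log2 ratio of 12 h over 0 h in LGP2 cells (x axis) against 4KR cells (y axis) for 15738 genes detected on 4 arrays (grey) and the 56 such TRIM genes (purple), with a line of equal responses; 23 genes lie outside the axes. TRIM26, TRIM21 and TRIM25 lie close to the line, and TRIM15 lies farthest from it among the TRIM genes, by 0.45.

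TRIM15 differed most between the lines. Its intensities were 37.6 and 38 in unstimulated LGP2 and 4KR cells and 28.3 and 48.2 at 12 h, so the lines were level before stimulation and apart after it. The log2 ratios were -0.36 in LGP2 cells and 0.09 in 4KR cells, a difference of 0.45, or 0.46 with each block centred, and 0.43 to 0.81 over the alternatives tried, past 1.5-fold in 4 of 10. Its single probe lies in block 7, outside the shifted blocks. The 5 members whose responses differed by over 0.2 were TRIM15, TRIM27 (0.28), TRIM24 (0.24), TRIM32 (0.23) and TRIM68. The range over the alternatives was 0.058 to 0.50 for TRIM27, 0.18 to 0.43 for TRIM24, 0.18 to 0.42 for TRIM32 and -0.50 to -0.027 for TRIM68. TRIM68, at -0.21, was lower in unstimulated LGP2 than 4KR cells, with intensities of 24.9 and 32.6, and near-level at 12 h, with 44.5 and 41.3.

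Between the lines at the same time, 0 members passed 1.5-fold. Unstimulated, 0.13% of all genes were higher in 4KR cells by that measure and 0.341% lower. At 12 h the shares were 0.0586% and 0.0352%. The largest unstimulated difference was that of TRIM44, a RING-less member with a reported part in stabilizing MAVS, whose intensities were 127.9 in LGP2 and 87.9 in 4KR cells unstimulated and 138.6 and 99.4 at 12 h. It was lower in 4KR cells at both times, by log2 ratios of -0.42 and -0.29, and over the alternatives it lay between -0.54 and -0.39 unstimulated and between -0.48 and -0.15 at 12 h. TRIM27 and TRIM35 were at -0.25 and -0.22 unstimulated, each with a probe in block 24, and at -0.19 and -0.11 with each block centred. TRIM38 was at -0.16 unstimulated and 0.00 at 12 h.

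**Figure D5:**
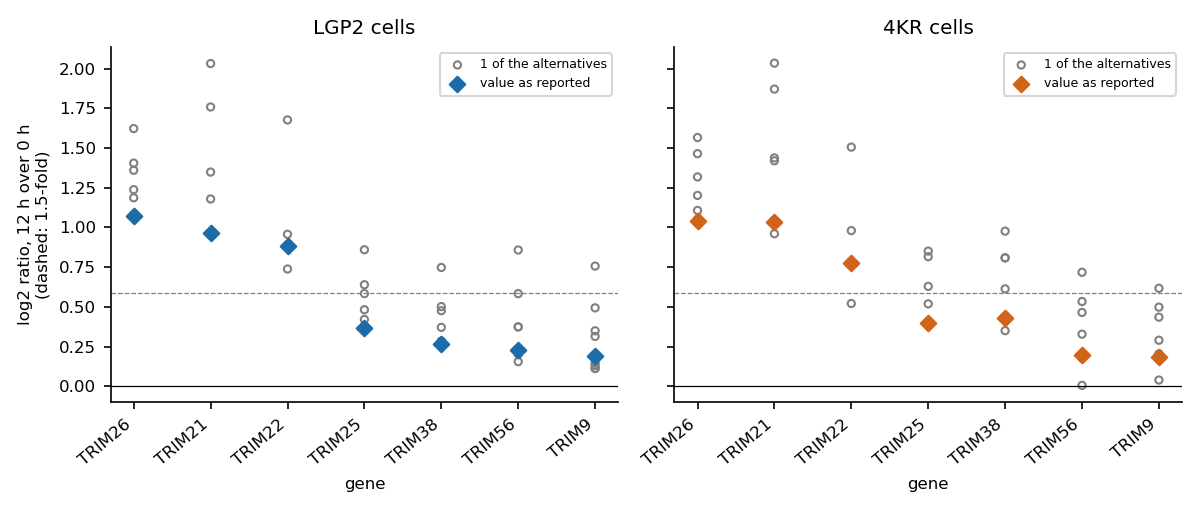
Log2 ratio of 12 h over 0 h (y axis) in each line for the 7 members called by limma (x axis), as reported (diamonds) and under the processing alternatives (circles; plain subtraction is left out for TRIM22, which is at its floor unstimulated). TRIM26 does not go below 1.04 or TRIM21 below 0.96 in either line, while TRIM56 comes down to 0.006 in 4KR cells.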

How the data were processed

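Total RNA of 4 samples was amplified, coupled to Cy5 and hybridised to single-colour arrays, per the labels' protocols. Per the file headers, the deposited scanner tables hold the median intensity of each of 27456 spots, in scanner units and not normalized. The authors' deposited series table gives each gene probe an intensity. A linear fit to the scanner medians showed it to be that median less about the mean blank level, scaled to a median of 25 (largest residual 0.0530). The scanner's own background column moved with the signal (correlation of logarithms 0.991 to 0.997), so the mean of 384 blank spots served as background. With limma 3.58.1 in R 4.3.3, 24460 gene probes were corrected by normexp with offset 50, quantile normalized and put on log2, and probes of a gene averaged. One probe rejected by the scanner was left out. Gene names came from the platform annotation (21707 probes with 1 gene, 0 with several, 2753 with none). RefSeq held the gene identifiers of 21675 probes and changed 0 symbols. No genome build is named for the arrays, so only promoter sequences carry coordinates.

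Counts use genes detected on the brighter array of a pair, or on all 4 when responses are compared. Where a gene was detected only on the brighter array, a bound was computed against the dimmest detected probe of the other. Named are members past 1.5-fold or called by limma, the 5 highest and 5 lowest by mean response, and the listed pathway regulators. The members, lists and tests were chosen with earlier results of these data known. Alternatives were offset 16, plain subtraction, no normalization or 75th percentile scaling between arrays, the deposited table, the brightest probe, block centring, detection at 5 SD or none, and for limma no line term or a variance trend. Leaving out blocks 20, 21 and 24 was added after seeing the data. The number of arrays limits the precision.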

Additional observations from a re-analysis of the deposited data

Results flagged for a closer look

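Responses of opposite sign in the 2 lines that differed by more than 0.1 on the log2 scale, among members detected on all 4 arrays, were found for 4 genes, and these differences were not tested. The difference (4KR minus LGP2) was 0.45 for TRIM15 and -0.17 for TRIM11, a ligase with log2 ratios of 0.04 and -0.12. It was 0.13 for TRIM44, at -0.12 and 0.01, and 0.11 for TRIM50, at -0.07 and 0.05. Of the 56 members, 10 had opposite signs in all. How often all genes did so was not computed.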

How the results depend on the processing

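The 7 members called by limma kept their direction under every alternative run. Scaling between arrays turned the direction of uncalled members. With no normalization the limma change was above 0 for TRIM6 (0.18), TRIM11 (0.39), TRIM15 (0.20), TRIM28 (0.28), TRIM44 (0.40), TRIM2 (0.19), TRIM45 (0.092) and TRIM64C (0.21), of which TRIM11, TRIM28 and TRIM44 were called. With 75th percentile scaling it was above 0 for TRIM11 (0.048) and TRIM44 (0.063) and below 0 for TRIM13 (-0.018), TRIM14 (-0.063), TRIM29 (-0.20), TRIM31 (-0.29), TRIM34 (-0.22), TRIM40 (-0.13) and TRIM59 (-0.073), of which TRIM31 and TRIM34 were called. In the deposited table it was above 0 for TRIM6 (0.12), TRIM11 (0.17), TRIM44 (0.15), TRIM2 (0.044) and TRIM64C (0.051), none called. TRIM26 and TRIM21 were called by limma under 12 of 12 alternatives and TRIM22 under 11 of 11, while TRIM22 in 4KR cells was under 1.5-fold with 75th percentile scaling, at 0.52. Members at least 1.5-fold higher (3 in each line) numbered 6 in LGP2 and 10 in 4KR cells with plain subtraction and 17 and 21 in the deposited table, neither of which has an offset, 12 in 4KR cells with no normalization between arrays and 5 with offset 16. Over all genes (316 and 264) the counts were 1450 and 1279, 3320 and 2131, 2645, and 459 in the same order. Plain subtraction put 1 lower in each line, against 752 and 651 of all genes. The median over members was 0.16 in LGP2 and 0.17 in 4KR cells with plain subtraction, 0.15 and 0.31 with no normalization, -0.068 and -0.15 with 75th percentile scaling and 0.47 and 0.36 in the deposited table, where the medians of all genes were -0.03 and -0.03, 0.12 and 0.26, -0.10 and -0.19, and 0.25 and 0.15. The difference of the responses had 1 member higher with offset 16, plain subtraction, no normalization and the deposited table, against 122, 580, 232 and 453 of all genes. It had 1 lower with plain subtraction and the deposited table, against 493 and 1080 of all genes. Its median was 0.13 with no normalization and -0.11 with 75th percentile scaling. In 4KR against LGP2 cells unstimulated, 1 member was higher in the deposited table, against 323 of all genes. At 12 h, 1 member was higher with offset 16, plain subtraction and no normalization, against 28, 504 and 27 of all genes. The deposited table put 1 member higher and 4 lower at 12 h, against 253 and 609 of all genes. By limma (7 higher, 0 lower), 11 were higher with offset 16 or without blocks 20, 21 and 24, 3 with plain subtraction and 30 with no normalization, against 1913, 1887, 159 and 6870 of all genes (1395). With 75th percentile scaling 20 were lower, as were 6340 of all genes (1285). With block centring, without blocks 20, 21 and 24, or with no line term 1 was lower, against 1846, 2221 and 1571 of all genes. The causes were not tested. No paired analysis was possible because each group has 1 array and the labels number no replicates; the line is a term of the limma model. Leaving out an array leaves that model no residual degrees of freedom and was not run. Probes near the blank level limit the ratios of dim members.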

Other observations

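Relatives that carry other symbols were outside the rule. MID1, a microtubule-bound ligase of the same family, had deposited intensities of 160.8 and 157.3 unstimulated and of 222.1 and 237.4 at 12 h in LGP2 and 4KR cells, with log2 ratios of 0.22 and 0.43 and a limma adjusted p of 0.0637. Its paralog MID2 was at 0.01 and -0.04. PML, of the nuclear bodies, was at 0.07 and 0.04 on intensities between 2.86 and 6.84. MEFV, which encodes pyrin, was detected on 3 arrays at intensities of 2.3 or less.

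Symbols that begin like those of the members but are not TRIM and a number were also measured. The probe named for the read-through gene TRIM39-RPP21, in block 24, had intensities of 441.4 and 266.2 unstimulated and 361.7 and 383.9 at 12 h, with log2 ratios of -0.38 and 0.43, while the TRIM39 probe in block 14 was at 0.13 and 0.16. TRIML1 fell, at -0.17 and -0.19 with a limma adjusted p of 0.0478, and TRIML2 at 0.09 and 0.08.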
